A study of Danio rerio with 36 samples.

Results

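The effect of losing sgsh on the adult zebrafish brain was compared between 3 and 18 months of age as an interaction of genotype and age, that is, the difference between sgsh and wild-type brains at 18 months minus the same difference at 3 months. The comparison used 12 of the 36 RNA-seq libraries of the series. At each age there were 3 libraries from fish homozygous for sgshΔex5-6 and 3 from sgsh wild-type fish, and every library was made from a pool of 3 whole brains. The mutant line lacks exons 5 and 6 of sgsh and was kept on the Tübingen (TU) background. The 3-month fish were taken without regard to sex, and the sex of the 18-month fish is not given in the sources used here. None of the 12 libraries came from fish with a transgene. Values at 2 months come from 6 further brain libraries of fish without a transgene. Of these, 3 were from sgshΔex5-6 homozygous and 3 from sgsh wild-type fish. Of 32520 genes in the count table, 20608 passed edgeR's filter on low counts and were tested. An interaction with a Benjamini-Hochberg adjusted p under 0.05 in edgeR's quasi-likelihood test was found for 26 of them (0.126%), and a gene past this threshold is described here as called. Levels are normalized read counts (CPM, counts scaled to the library total after TMM normalization), and differences are log2 fold changes of sgsh over wild type. Their standard error (SE) was derived from the test, as the absolute log2 fold change divided by the square root of its F statistic. It is approximate, above all where a group has few counts.

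SGSH is a lysosomal sulfatase that removes sulfate from glucosamine residues at the end of heparan sulfate chains as these are degraded. Its loss causes mucopolysaccharidosis type IIIA, or Sanfilippo syndrome, in which partly degraded heparan sulfate accumulates in lysosomes and the brain degenerates progressively, with activated microglia. In the zebrafish brain neural stem cells keep dividing through adult life, at a rate that falls with age. An interaction can arise from a change with age in either genotype, so the level in each of the 4 groups is given. Brains of different ages came from different fish, so age could not be told apart from clutch, rearing or collection. A rise, fall or change with age is therefore a difference between groups of fish of different ages. The part of clutch, rearing or collection in it was not tested. For the sequenced pools, the labels do not say whether sgsh and wild-type fish of an age were siblings or were collected together. The part of clutch, rearing or collection in a difference between the genotypes was not tested either.

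The total count per library was 21340728 to 24678514 at 3 months and 22177654 to 22511711 at 18 months. The sgsh transcript itself (chromosome 22, positions 11520249 to 11532760) had 92 to 107 counts in wild-type and 45 to 58 in sgsh brains at 3 months, and 18-month brains had 147 to 154 in wild type and 65 to 93 in sgsh, so that every library was on the side of its genotype label. Its log2 fold change was -0.99 (SE 0.15) at 3 months and -0.87 (SE 0.14) at 18 months, with an interaction of 0.11 (SE 0.20, adjusted p = 0.82). The sgsh libraries at 18 months were the least alike, at a root mean square log2 difference of 0.40 to 0.47 from the rest of their group, against 0.39 to 0.42 in wild type at 18 months and 0.34 to 0.36 at 3 months. Among these 3 libraries, replicate 3 had the highest summed CPM of 20 muscle genes (141, against 76.5 and 82.9) and of 15 skin genes (456, against 283 and 292), and replicate 1 the lowest of 16 red blood cell genes (290, against 496 and 526). In wild type at 3 months, replicate 1 also had a high muscle sum (157 CPM). The 12 genes that mark brain tissue summed to 20140 to 28840 CPM in all 12 libraries.

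More genes were called between the genotypes at 18 than at 3 months, and most genes called at 3 months were called again at 18 months. At 3 months 292 genes were called (1.42%), 217 higher (1.05%) and 75 lower (0.364%) in sgsh. At 18 months 3711 were called (18%), 2063 higher (10%) and 1648 lower (8%). The contrast was smaller when the 6 libraries of each age were fitted alone, with 576 genes called at 3 months and 1352 at 18 months. Of the 292 genes, 243 (83.2%) were also called at 18 months, 241 of them in the same direction, and these 243 made up 6.55% of the 18-month calls. Only 3 of the 292 had a called interaction. The 3711 genes called at 18 months had a median absolute log2 fold change of 0.45 at that age, where they were chosen, and 0.15 at 3 months, and 25 of them had a called interaction. A call at 18 months without one at 3 months was therefore seldom a called difference between the ages. Of 3468 such genes, 1715 had an unadjusted interaction p under 0.05, which 3159 of all genes tested had (15.3%). Because the interaction contains the 18-month effect, this share is a description and not a test.

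**Figure D1:**
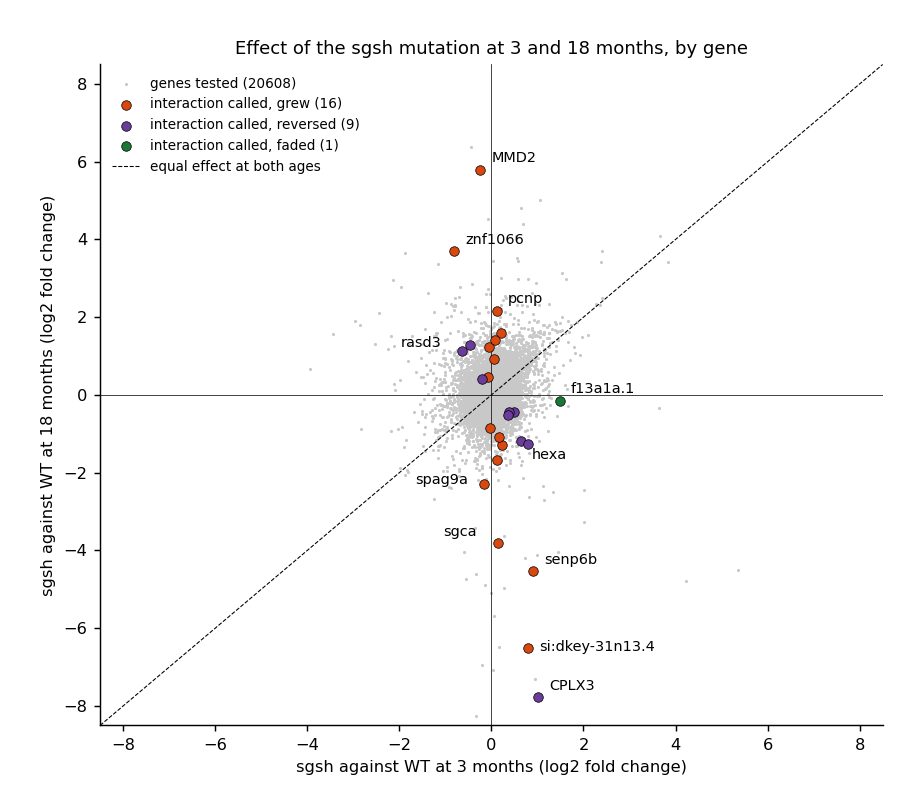
Log2 fold change of sgsh over wild type at 3 months (horizontal axis) and at 18 months (vertical axis), 1 point per gene tested, with 4 genes outside the axes. Of the 26 genes with a called interaction, 16 grew with age and 9 reversed, and f13a1a.1 is the 1 gene whose effect faded.

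The 26 called interactions comprised 11 positive ones (0.0534% of genes tested), in which sgsh gained on wild type with age, and 15 negative ones (0.0728%). Classed by unadjusted p under 0.05 at each age, 16 effects grew, 9 reversed and 1 faded. With adjusted p-values at each age 23 grew, 2 reversed and 1 faded. All but 1 of the genes were protein-coding. The 3 sgsh libraries lay wholly above or below the 3 wild-type libraries in 25 of the 26 genes at 18 months, against 33% of all genes tested, and in 11 at 3 months, against 23.3%. The interaction was computed from these values, so the counts describe the genes and add no evidence.

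In most of these genes the wild-type level moved with age. The change from 3 to 18 months was called in wild type for 25 of the 26 genes (20.8% of all genes) and in sgsh for 18 (19.5% of all genes). It was larger in wild type for 19 genes and of opposite sign in the 2 genotypes for 18. Counting called changes, all 11 genes with a positive interaction fell with age in wild type and 13 of the 15 with a negative interaction rose. Of the other 2, f13a1a.1 fell and si:ch211-233f10.7 had an uncalled log2 change of 0.45. The interaction is also the change with age in sgsh minus that in wild type. Genes called by it were thus picked for unlike changes with age, so these counts describe the genes and add no evidence.

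The gene for a lysosomal hydrolase, hexa, reversed. It encodes the alpha subunit of beta-hexosaminidase, which degrades the ganglioside GM2, and lies on chromosome 25 (positions 22216723 to 22241312). At 3 months its level was 12.6, 9.55 and 13.5 CPM in wild type and 16.1, 18.3 and 21.2 CPM in sgsh. By 18 months the level was 19.3, 24.9 and 21.6 CPM in wild type and 10.5, 9.99 and 8.69 CPM in sgsh. The genotypes did not overlap at either age, with sgsh higher at 3 months and lower at 18 months. The log2 fold change was 0.64 (SE 0.14, adjusted p = 0.048) at 3 months and -1.18 (SE 0.14, adjusted p = 0.00045) at 18 months. The interaction of -1.81 (SE 0.20, adjusted p = 0.0070) was called under all 21 alternative settings. In 2-month brains, fitted separately, hexa was 13.1 to 19.4 CPM in wild type and 18.1 to 24.2 CPM in sgsh (log2 fold change 0.41, adjusted p = 0.43).

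The other gene that reversed with adjusted p-values was stm (starmaker), which in zebrafish encodes an acidic matrix protein of the otolith. Its level was 159, 132 and 110 CPM in wild type and 192, 194 and 181 CPM in sgsh at 3 months. In 18-month brains it was 337, 321 and 351 CPM in wild type and 262, 264 and 222 CPM in sgsh. The transcript rose with age in both genotypes, by a log2 fold change of 1.33 in wild type and 0.40 in sgsh, so that sgsh passed from the higher to the lower side (interaction -0.93, SE 0.15, adjusted p = 0.039). The span of stm overlaps that of another tested gene, zgc:86598.

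A further 7 genes reversed by the unadjusted p at each age. The ID table gives the name PFKP, the platelet-type phosphofructokinase of glycolysis, to 2 tested genes, and the one on chromosome 2 (positions 48119494 to 48171441) was called. Its mean level was 73.5 ± 4.84 CPM (SD, n = 3) in wild type and 95.4 ± 7.74 CPM in sgsh at 3 months, and 93.3 ± 14.1 CPM against 68.8 ± 3.99 CPM at 18 months (interaction -0.82, SE 0.14). The gene for the mu subunit of the AP-4 adaptor complex, ap4m1, which sorts cargo leaving the trans-Golgi network, went from 14.5 to 17.1 CPM against 19.1 to 23.3 CPM at 3 months to 25.1 to 29.7 against 16.6 to 20.1 CPM at 18 months (interaction -0.88, SE 0.15). In both genes the groups were apart at each age, in opposite directions. With a positive interaction, rasd3, a Ras-like small GTPase, was 2.84 to 3.84 CPM in wild type and 2 to 2.37 CPM in sgsh at 3 months, and 0.62 to 0.757 against 1.4 to 1.6 CPM at 18 months (interaction 1.78, SE 0.27). The mitochondrial carrier gene slc25a55a had an interaction of 0.62 (SE 0.10), from a log2 fold change of -0.20 at 3 months to 0.42 at 18 months. The remaining genes of this class, CPLX3, pcdh1g14 and pcdh1g1, are described below with the low-count genes and the protocadherins.

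Of the genes whose effect grew, 5 were lower in sgsh at 18 months with a mean above 1 CPM and outside the protocadherin cluster. The septin gene septin8b, a member of the family of filament-forming GTPases, was 51, 52 and 47.4 CPM in wild type and 47.5, 50.4 and 50.5 CPM in sgsh at 3 months. At 18 months it was 71.3, 71.4 and 66 CPM in wild type and 36.3, 42.6 and 36.7 CPM in sgsh. The groups overlapped at 3 months and were apart at 18 months, when the wild-type level had risen and the sgsh level had fallen (interaction -0.83, SE 0.10, adjusted p = 0.0073).

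The scaffold gene spag9a, whose mammalian counterpart JIP4 binds JNK kinases and links vesicles, lysosomes included, to motor proteins, also rose with age in wild type and fell in sgsh. It was 32.6, 36.7 and 29.4 CPM in wild type and 25.7, 34.9 and 28.2 CPM in sgsh at 3 months. In old brains the level was 86.8, 61.6 and 106 CPM in wild type and 22, 16.9 and 13.2 CPM in sgsh. The log2 fold change went from -0.15 (adjusted p = 0.82) to -2.29 (adjusted p = 9.3e-05), an interaction of -2.14 (SE 0.29, adjusted p = 0.017).

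Alpha-sarcoglycan, sgca, a part of the dystrophin-associated complex best known from muscle, was 2.79, 1.09 and 2.1 CPM in wild type and 2.61, 1.82 and 2.15 CPM in sgsh at 3 months. In 18-month brains it was 11, 13.1 and 9.28 CPM in wild type and 0.543, 0.55 and 1.27 CPM in sgsh, which is 751 against 52 counts. The ratio of 14.4 has a 95% interval of 10.9 to 19.5 that covers counting error only. The interaction was -3.95 (SE 0.47, adjusted p = 0.0073). The summed level of the muscle genes was 78.9 to 83.6 CPM in the 3 wild-type libraries at 18 months and 76.5 to 141 CPM in the sgsh libraries. The part of muscle tissue in the sgca values was not tested. The other 2 genes of this group were si:ch211-266c8.1 (interaction -1.25, SE 0.21) and si:ch211-233f10.7 (-1.80, SE 0.27), a lincRNA gene whose span holds the microRNA gene dre-mir-219-2.

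Another 6 genes grew in the other direction, with a fall in wild type that sgsh showed less or not at all. Among them sulf1 encodes an extracellular endosulfatase that removes sulfate from heparan sulfate, the polymer that SGSH helps to degrade. It was 25, 28.4 and 28.5 CPM in wild type and 30.1, 25.4 and 29.4 CPM in sgsh at 3 months. The 18-month level was 10.8, 12.2 and 11.7 CPM in wild type and 23.3, 20.1 and 22.8 CPM in sgsh. The wild-type level had fallen by 1.24 on the log2 scale and the sgsh level by 0.36, so that groups that overlapped at 3 months differed by a log2 fold change of 0.93 at 18 months (interaction 0.88, SE 0.13, adjusted p = 0.027). At 2 months sulf1 was 31.3 to 33.8 CPM in wild type and 33.3 to 44.9 CPM in sgsh (log2 fold change 0.25, adjusted p = 0.48).

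The gene pcnp, which encodes a nuclear protein with PEST sequences, was 30.9, 23.5 and 38.4 CPM in wild type and 37.8, 24.4 and 38.3 CPM in sgsh at 3 months. At 18 months it was 8.02, 7.39 and 8 CPM in wild type and 28.2, 39.5 and 37.6 CPM in sgsh. Only the wild-type libraries at 18 months stood apart from the other 3 groups (interaction 2.05, SE 0.28, adjusted p = 0.019). A like pattern was seen for fastkd2, for a protein that binds mitochondrial RNA, at 10.7 to 12.4 CPM in wild type at 18 months and 26 to 38.2 CPM in the other 3 groups (interaction 1.35, SE 0.21). Its span overlaps gtf3c3, which had an interaction of 1.17 (adjusted p = 0.093).

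The remaining 3 genes of this group were si:ch211-114l13.1 (interaction 1.28, SE 0.17, adjusted p = 0.015), zgc:112332 (1.39, SE 0.21, adjusted p = 0.032) and hsbp1a, for a protein that binds heat shock factor 1 (0.55, SE 0.09, adjusted p = 0.038). The level of zgc:112332 was 52.7 to 56.9 CPM in wild type and 58.6 to 69.6 CPM in sgsh at 3 months, and 19.8 to 33 against 72.4 to 96.9 CPM at 18 months. It was also higher in sgsh at 2 months, at 26.7 to 33.9 CPM against 11.2 to 14.6 CPM (log2 fold change 1.25, adjusted p = 0.0034 in edgeR's quasi-likelihood test of those 6 libraries). The small change of hsbp1a was seen in every library, at 36.6 to 38.8 CPM in wild type and 50.8 to 54.5 CPM in sgsh at 18 months, with overlapping groups at 3 months.

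One effect faded. The gene f13a1a.1 encodes an A subunit of coagulation factor XIII, a transglutaminase that in mammals is also made by macrophages. At 3 months it was 3.8, 2.75 and 3.86 CPM in wild type and 9.9, 11.3 and 7.83 CPM in sgsh (log2 fold change 1.48, SE 0.17, adjusted p = 0.0016). At 18 months it was 1.6, 1.73 and 2.04 CPM in wild type and 1.63, 1.74 and 1.49 CPM in sgsh (log2 fold change -0.14, adjusted p = 0.66). The groups were apart at 3 months and overlapped at 18 months, when both genotypes were lower than before (interaction -1.63, SE 0.27, adjusted p = 0.042). It was not tested at 2 months.

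**Figure D2:**
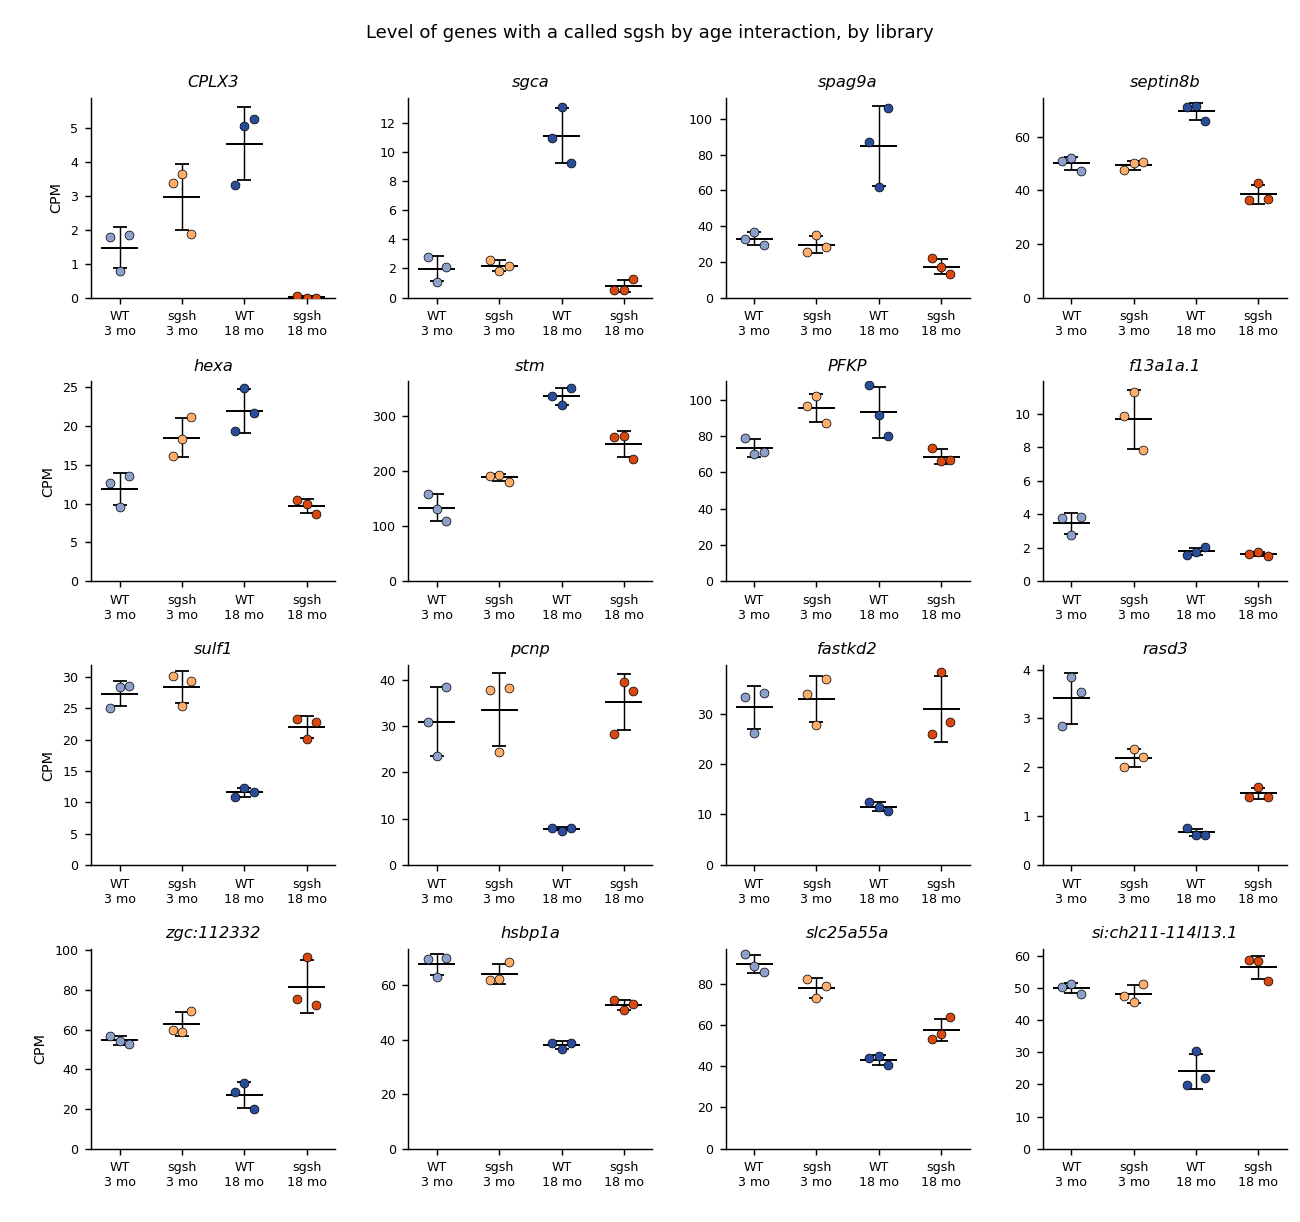
Level in CPM of 16 genes with a called interaction, 1 point per library, with the mean (long bar) and SD (short bars) of the 3 libraries of each group. The top row shows genes that are low in sgsh at 18 months only or mainly, the second row hexa, stm and PFKP, which cross over, and f13a1a.1, which fades, and the lower rows genes that fell with age in wild type.

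Few counts were found for 5 of the called genes in 1 of the 18-month groups, and their fitted fold changes depend on the prior count. Complexin 3 (CPLX3), a regulator of synaptic vesicle release, lies on an unplaced scaffold (KN149995.1). It was 1.79, 0.785 and 1.84 CPM in wild type and 3.38, 3.64 and 1.86 CPM in sgsh at 3 months, and 3.3, 5.05 and 5.24 CPM in wild type at 18 months. In the sgsh libraries at 18 months it had 1, 0 and 0 counts, against 306 counts in the 3 wild-type libraries together. It was thus present in sgsh brains at 3 months and nearly absent at 18 months, with a ratio of 305 (95% interval for counting error 54.4 to 12097). At 2 months it was low in sgsh as well, with 22, 16 and 23 counts in wild type and 1, 1 and 0 in sgsh (log2 fold change -4.70, adjusted p = 0.011). A second complexin 3 gene, cplx3a, singled out after its values were seen, went the other way without being called (interaction 1.80, SE 0.42, adjusted p = 0.14), and how reads that fit both genes were counted is not given in the sources used here.

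The other 4 low-count genes all had a mean under 1 CPM. For si:dkey-31n13.4 the 18-month counts were 126 in wild type and 1 in sgsh (ratio 126, 95% interval 22.2 to 5004). For senp6b, named for SUMO-specific proteases, they were 127 and 5 (ratio 25.3, 95% interval 10.6 to 79.4). In the other direction znf1066, a zinc finger gene, had 68 counts in sgsh and 5 in wild type (ratio 13.6, 95% interval 5.56 to 43.3). One of 2 genes named MMD2, on chromosome 1 (positions 7908282 to 7917062), had 20 counts in sgsh and 0 in wild type at 18 months, at least 6.68-fold higher against a floor of 3 counts over the group, although it was 0.833 to 1.39 CPM in wild type at 3 months. The last genes inside the threshold were senp6b and MMD2 (adjusted p = 0.045 for each), and the first outside it was snx9a (interaction -1.02, adjusted p = 0.051).

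The clustered protocadherins of chromosome 10 (positions 21559605 to 21820133) held 3 called interactions among 22 tested genes. These genes encode cell adhesion proteins of which single neurons express different combinations. Of the 22 genes, 15 had an unadjusted interaction p under 0.05, 3 positive (7.91% of all genes) and 12 negative (7.41% of all genes). None was called at 3 months, which is near the 1.42% of all genes called at that age. At 18 months 2 were called higher in sgsh, near the 10% of all genes, and 10 lower (8% of all genes). The median log2 fold change was 0.11 at 3 months and -0.57 at 18 months, beside 0.00062 and -0.0056 over all genes tested. In the related cluster on chromosome 14, 1 of 10 tested genes had an unadjusted interaction p under 0.05.

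The 3 called protocadherins did not all move one way. The level of pcdh1g14 was 3.97, 5.19 and 3.46 CPM in wild type and 7.17, 8.28 and 6.45 CPM in sgsh at 3 months, and 6.91, 8.63 and 12.3 against 4.71, 3.53 and 3.3 CPM at 18 months (interaction -2.06, SE 0.31). The level of pcdh1g30 was 32.7, 34.3 and 49.8 against 49.9, 53.2 and 34.4 CPM at 3 months and 77.1, 83.8 and 87.8 against 39.2, 32.6 and 29.5 CPM at 18 months (interaction -1.53, SE 0.25). For pcdh1g1 it was 13.1, 10.6 and 15.2 against 9.74, 9.19 and 9.21 CPM at 3 months and 2.99, 6.33 and 4.04 against 10, 12.1 and 10.3 CPM at 18 months (interaction 1.75, SE 0.29). The first 2 were thus highest and the third lowest in old wild-type brains. The uncalled pcdh1g26, singled out after its values were seen, varied within groups: it was 2.71, 2.83 and 11.5 CPM in wild type and 12.7, 14.5 and 2.67 CPM in sgsh at 3 months, 12.2 to 16.7 against 2.08 to 2.67 CPM at 18 months, and 1.83 to 2.83 CPM in all 6 libraries at 2 months. The genes of this cluster overlap, so that reads may be split among them and each gene's count is uncertain.

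**Figure D3:**
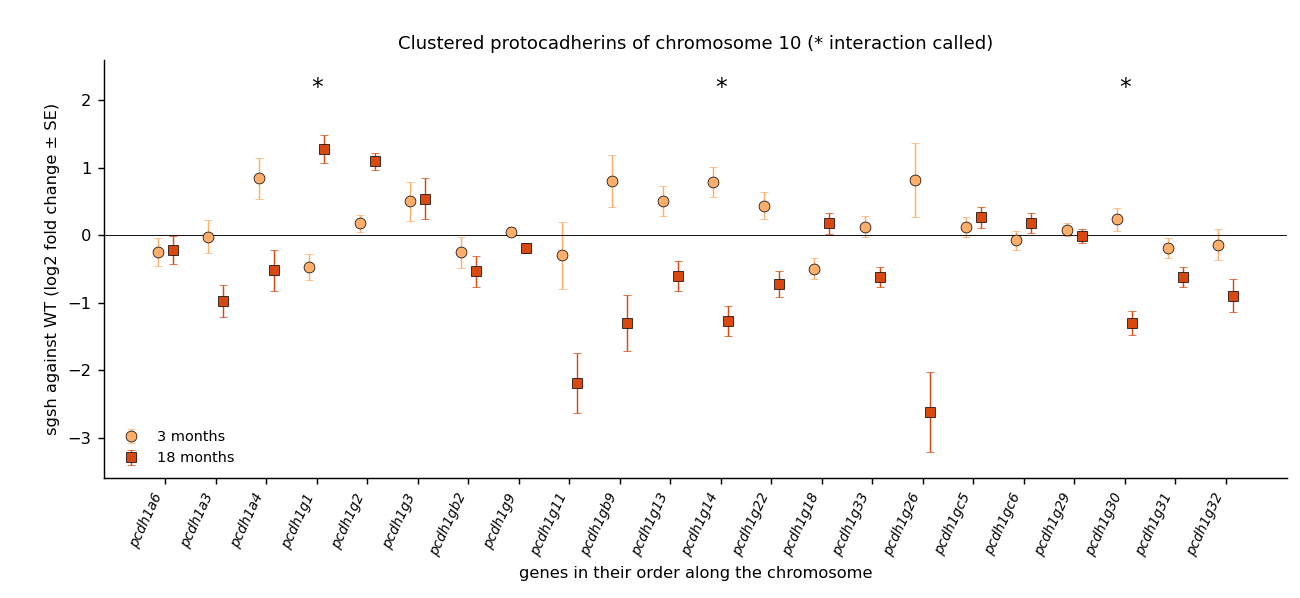
Log2 fold change of sgsh over wild type, with its SE, for the 22 tested protocadherins of chromosome 10 at 3 months (circles) and 18 months (squares), in their order along the chromosome. At 18 months 10 genes were called lower and pcdh1g1 and pcdh1g2 higher in sgsh. None was called at 3 months, when 1.42% of all genes were.

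Some called interactions lay close together in the genome. In 267 regions of 5 Mb with at least 30 tested genes, the median share of genes with an unadjusted interaction p under 0.05 was 14.8%. The region of chromosome 10 from 20 to 25 Mb, with the protocadherins, ap4m1 and the synaptic vesicle gene vamp2, had 47 of 104 (45.2%). It was followed by chromosome 1 from 5 to 10 Mb with 27 of 87 (31%), where pcnp, fastkd2, rasd3 and MMD2 were called. Next came chromosome 12 from 0 to 5 Mb with 30 of 100 (30%), where sgca was called. Chromosome 24 from 15 to 20 Mb, where sulf1 and zgc:112332 were called, had 12 of 44 (27.3%). The same stretch of chromosome 10 led with regions of 2 Mb (32 of 58 genes, 55.2%) and of 10 Mb (67 of 190 genes, 35.3%), sizes chosen after seeing the data. Within 10 Mb of sgsh itself, 52 of 477 genes (10.9%) had such a p and none was called.

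**Figure D4:**
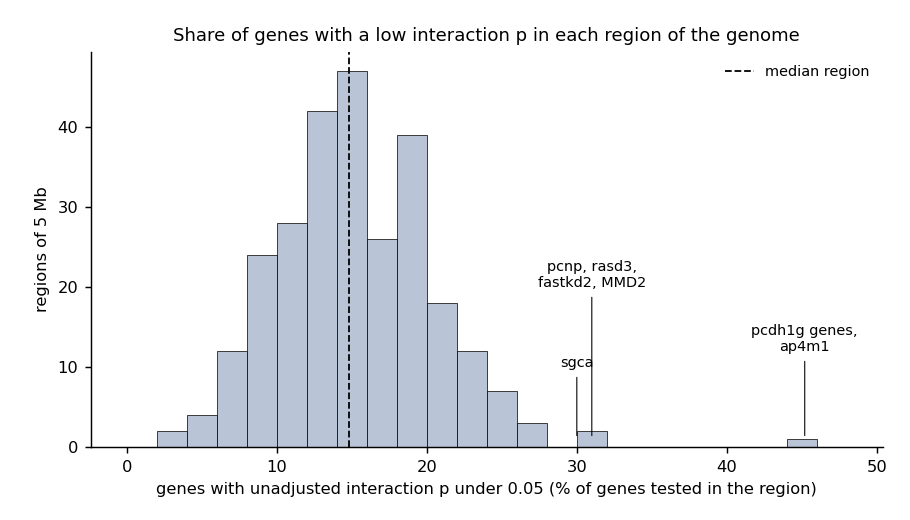
Number of 5 Mb regions (vertical axis) by the share of their tested genes with an unadjusted interaction p under 0.05 (horizontal axis, in percent), with the median region as a dashed line at 14.8%. The region with the protocadherins stands at 45.2% and the next at 31%.

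The interaction was then read over 29 lists of genes, and hexa was the only list member called among all of them. Each list is therefore described by how many members had an unadjusted interaction p under 0.05, beside 7.91% upward and 7.41% downward over all genes, and by its median interaction, beside 0.0043 over all genes. Members called between the genotypes are to be read against 1.05% of all genes called higher and 0.364% called lower at 3 months, and 10% and 8% at 18 months. In whole brains a change in the number of cells of a type and a change in RNA per cell cannot be told apart. The list members named below without a called interaction were chosen for their low p after their values were seen. Where a count is given without 1 library, the share over all genes in that fit was not computed. Whether a change in such a count is particular to the list was not tested.

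Interferon-response genes had the largest share. Of 39 tested, 22 had a low p upward and 0 downward, with a median interaction of 0.99. The median log2 fold change was -0.23 at 3 months and 0.54 at 18 months. The 22 included mxa and mxb, which lie in the region of chromosome 1 from 5 to 10 Mb described above. At 18 months 6 of the 39 were called higher in sgsh, near the 10% of all genes, among them ifih1, a sensor of viral RNA (log2 fold change 1.13, adjusted p = 0.020), and gbp1 (0.79, adjusted p = 0.038). The change with age was called upward for 33 of the 39 in sgsh (9.87% of all genes) and for 9 in wild type (9.14% of all genes). Single libraries weighed heavily. The summed level was 1588, 1731 and 2535 CPM in sgsh at 18 months, against 1382, 1593 and 1344 CPM in wild type, and isg15 had 91, 601 and 599 counts in sgsh against 112, 297 and 47 (interaction 2.73, adjusted p = 0.27). Without replicate 3 of sgsh at 18 months, which also had the high muscle and skin sums, 10 of 39 had a low p upward and the median was 0.53. The count was also 10 without replicate 3 of wild type at 3 months, 12 and 14 without replicates 3 and 1 of wild type at 18 months and 13 without replicate 2 of sgsh at 3 months. Leaving out any other library gave 17 to 27, the highest without replicate 1 of sgsh at 18 months.

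Genes of microglia and macrophages, the resident and infiltrating phagocytes, had the same balance. Of 32 tested, 13 had a low p upward and 0 downward, with a median interaction of 0.45, and 12 were called higher and 1 lower at 18 months (10% and 8% of all genes) against 2 and 0 at 3 months (1.05% and 0.364%). The antigen-presentation gene cd74a was 298, 275 and 304 CPM in wild type and 227, 230 and 230 CPM in sgsh at 3 months, and 430, 424 and 405 against 421, 478 and 591 CPM at 18 months (interaction 0.59, SE 0.13, adjusted p = 0.12). The lipid carrier gene apoeb was higher in sgsh at both ages, with a log2 fold change of 0.43 (adjusted p = 0.0094) at 3 months and 0.84 (adjusted p = 6.7e-05) at 18 months (interaction 0.41, adjusted p = 0.14). Their summed level was 1215 to 1231 CPM in sgsh at 3 months and 1786 to 2224 CPM at 18 months, against 1097 to 1276 and 1429 to 1485 CPM in wild type. Without replicate 3 of sgsh at 18 months, 11 of 32 had a low p upward and the median was 0.32. The count was 8 without replicate 3 of wild type at 3 months and 20 without replicate 1 of sgsh at 18 months.

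Most cell-cycle genes fell with age in both genotypes, with a smaller median change in sgsh, although no member had a called interaction. Of 40 tested, 33 were called lower with age in wild type (11.7% of all genes; median log2 fold change -1.51) and 25 in sgsh (9.6% of all genes; median -0.79). At 3 months none was called between the genotypes, while at 18 months 14 were called higher and 1 lower in sgsh (10% and 8% of all genes). The interaction had a low p upward in 19 and downward in 1, with a median of 0.57. Upward genes numbered 11 without replicate 3 of sgsh at 18 months (median 0.45), 10 without replicate 1 of wild type at 3 months, and 11 and 12 without replicates 2 and 3 of sgsh at 3 months. Leaving out any other library gave 15 to 21. The proliferation marker mki67 was 28.6, 22.1 and 25 CPM in wild type and 31.5, 22.8 and 21.5 CPM in sgsh at 3 months, and 6.33, 8.59 and 6.26 against 10.8, 11.1 and 16.8 CPM at 18 months (interaction 0.86, adjusted p = 0.21). The one that went the other way was mcm7, a subunit of the replicative helicase, which was 26.5 to 36.6 CPM in wild type and 9.16 to 13 CPM in sgsh at 18 months (interaction -1.29, SE 0.24, adjusted p = 0.078).

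Among 28 genes of young neurons, 8 had a low p upward and 0 downward, with a median of 0.19. Their median log2 fold change was -0.14 at 3 months and 0.02 at 18 months, with 1 called lower at 3 months and 4 called higher and 2 lower at 18 months. The 8 became 5 without replicate 3 of sgsh at 18 months or replicate 2 of sgsh at 3 months. Leaving out any other library gave 7 to 9. A tubulin gene of newborn neurons, tubb5, was 382 to 442 CPM in wild type and 363 to 447 CPM in sgsh at 3 months, and 113 to 123 against 159 to 201 CPM at 18 months (interaction 0.59, adjusted p = 0.14). Glutamate and GABA receptor genes had the opposite balance, with 0 of 41 upward and 11 downward and a median of -0.16. At 18 months 5 of these 41 receptor genes were called lower in sgsh, near the 8% of all genes, and at 3 months none was called. The count of 11 was not stable. It was 4 without replicate 2 or 3 of wild type or replicate 3 of sgsh at 18 months and without replicate 1 of wild type or replicate 2 of sgsh at 3 months, 7 without replicate 3 of wild type at 3 months or replicate 2 of sgsh at 18 months, and 24 without replicate 1 of sgsh at 18 months.

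Genes of the integrated stress response, the programme by which ATF4 raises amino acid synthesis and transport, had 15 of 34 with a low p upward and 0 downward (median 0.36). At 3 months none was called, and at 18 months 17 of the 34 were called higher in sgsh (10% of all genes). The serine synthesis gene phgdh was 47.9, 44.1 and 48.7 CPM in wild type and 46.3, 40.1 and 44.9 CPM in sgsh at 3 months, and 29.2, 28.3 and 30.2 against 36.5, 62.6 and 45.5 CPM at 18 months (interaction 0.82, SE 0.20, adjusted p = 0.14). The transcription factor gene atf5b was 110, 106 and 112 CPM in wild type and 116, 296 and 223 CPM in sgsh at 18 months (interaction 1.03, SE 0.32, adjusted p = 0.19). In both genes replicate 1 of sgsh at 18 months was the closest to wild type.

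Of the 12 libraries, leaving out that one changed the number of called genes most. Without it 463 of 20896 genes had a called interaction (2.22%), 245 positive (1.17%) and 218 negative (1.04%), all 26 genes above among them, whereas leaving out any other library left 8 to 46 called genes. In that fit 12 of the 34 stress-response genes were called, all positive, including atf5b (interaction 1.33, adjusted p = 0.0021), psat1 (1.21, adjusted p = 0.0048), phgdh (0.99, adjusted p = 0.016) and atf4a (0.52, adjusted p = 0.019). Also called there were 5 of 33 microglia and macrophage genes, including cd74a (0.70, adjusted p = 0.013) and c1qc (1.69, adjusted p = 0.025), as were 3 of 27 synaptic vesicle genes, all negative, including vamp2 (-0.55, adjusted p = 0.013). Called there too were 3 of 29 radial glia genes and 2 of 16 red blood cell genes, all positive. Cell-cycle genes had 2 positive and 1 negative call among 40, lysosomal genes 3 and 1 among 57, and interferon genes 2 positive among 40. Replicate 1 was left out after its values were seen, and nothing in the labels marks it as different. It had the lowest red blood cell sum of its group, as given above.

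Lysosomal genes that were called were mostly higher in sgsh. Of 57 tested, 10 were called higher and 1 lower at 3 months (1.05% and 0.364% of all genes). At 18 months 25 were called higher and 3 lower (10% and 8%). The remaining members were not called at the age in question. The median log2 fold change was 0.13 and 0.20, and 12 genes had a low interaction p upward and 2, hexa and gusb, downward. The 12 became 7 without replicate 3 and 22 without replicate 1 of sgsh at 18 months. The cathepsin gene ctsla was 115, 112 and 123 CPM in wild type and 159, 162 and 190 CPM in sgsh at 3 months, and 116, 122 and 139 against 236, 254 and 238 CPM at 18 months. Its log2 fold change was 0.54 (adjusted p = 0.0074) at 3 months and 0.95 (adjusted p = 6.7e-05) at 18 months, with an interaction of 0.40 (adjusted p = 0.17).

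Immediate-early genes, which neurons transcribe within minutes of activity, included many called lower in sgsh at each age. Of 46 tested, 0 were called higher and 19 lower at 3 months (1.05% and 0.364% of all genes), and 3 higher and 22 lower at 18 months (10% and 8%), with medians of -0.42 and -0.36. The interaction had a low p upward in 6 and downward in 0, with a median of 0.11. The genes that the study named for the zebrafish brain, some of them in this list, were chosen by the study on the 3-month brains, so their direction at that age is not independent evidence. Of these 15, 9 were called higher and 6 lower at 3 months, 8 and 6 at 18 months, and none had a called interaction. For instance npas4a had a log2 fold change of -1.44 at 3 months and -1.43 at 18 months, fosab -1.98 and -1.87, nr4a1 -1.80 and -1.99, baiap2b 1.53 and 1.68 and plekhm1 0.83 and 1.05. The one with the lowest p was rorcb, a nuclear receptor gene, at 166 to 185 CPM in wild type and 208 to 226 CPM in sgsh at 3 months and 159 to 188 against 158 to 163 CPM at 18 months (interaction -0.42, SE 0.09, adjusted p = 0.11).

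**Figure D5:**
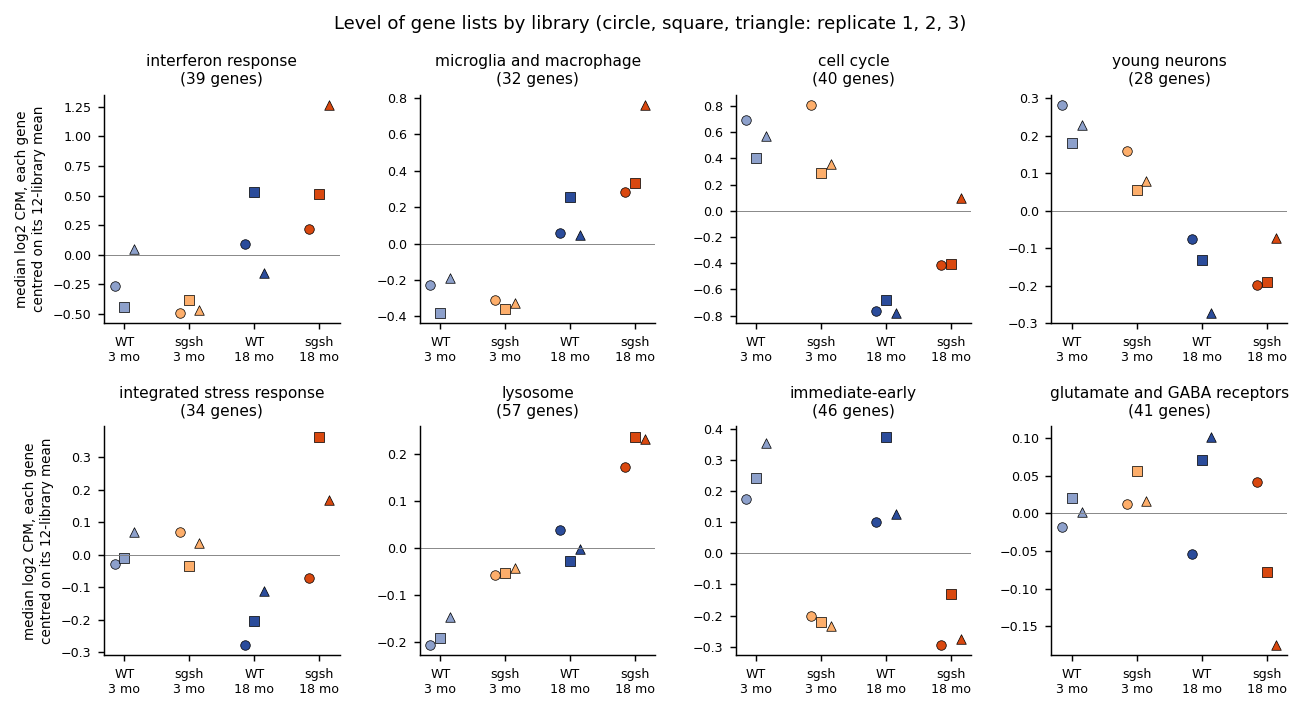
Median log2 CPM of 8 gene lists in each of the 12 libraries, each gene centred on its mean over the libraries, with circles, squares and triangles for replicates 1, 2 and 3 of a group. Replicate 3 of sgsh at 18 months is the highest library of the interferon and microglia lists, and replicate 1 of that group is the lowest of its group for the stress response.

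Of the markers of tissue around the brain, 7 of 20 muscle genes and 6 of 15 skin genes had a low interaction p upward and none downward. Their medians were 1.54 and 0.69, and 0.41 and 0.31 without replicate 3 of sgsh at 18 months, when 2 genes of each list were upward. The muscle count was also 2 without replicate 1 of wild type at 3 months (median 1.19). The skin count was also 2 without replicate 3 of wild type at 18 months (median 0.45). With 1 library left out, the counts reached at most 13 muscle and 6 skin genes. Of 36 vessel and meninges genes 8 were upward and 2 downward. Of 16 red blood cell genes 0 were upward and 2 downward. The part of such tissue in the interferon and microglia results was not tested.

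The sgsh effect at 2 months was called for few genes. It was measured in 6 other libraries of 3 pooled brains each (16274670 to 16594654 counts), fitted alone. These were 3 sgsh and 3 wild-type libraries from fish without a transgene. Of 19195 genes 94 were called (0.49%), 35 higher (0.182%) and 59 lower (0.307%). Of the 26 genes with a called interaction, 24 were tested at 2 months and 2 were called, CPLX3 and zgc:112332, both in the direction they had at 18 months. Some uncalled ones had an unadjusted p under 0.05 in that test. With their 18-month sign these were si:dkey-31n13.4 (log2 fold change -0.84), MMD2 (2.26), slc25a55a (0.25), pcdh1g30 (-0.59) and sulf1 (0.25). With the other sign they were spag9a (0.46) and hexa (0.41). All of these uncalled genes but sulf1 and hexa had unlike signs at 2 and 3 months. No interferon, microglia, cell-cycle or stress-response gene of the lists above was called at 2 months. With 0.49% of all genes called, few or none would be called in lists of 31 to 40 tested genes, so this says little about them. The 2-month counts came from another table and no test was made between the ages. The pigment-cell gene pmelb was higher in sgsh at every age. Its log2 fold change was 2.40 at 2 months, 3.84 at 3 months and 3.43 at 18 months. The interaction between the last 2 was -0.41 (SE 0.30, adjusted p = 0.51 in edgeR's quasi-likelihood test).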

How the data were processed

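RNA from pooled whole brains was sequenced by BGI for the authors on DNBSEQ (150 bp paired ends). The deposited counts are raw gene counts. The submitters' notes name GRCz11, HISAT2, Bowtie2 and RSEM, and the file label names STAR and featureCounts. The paper's methods name HISAT2, Bowtie2 and Salmon. The 2-month table was made with featureCounts 2.0.1 (minimum mapping quality 10). The strand setting of the 3- and 18-month table was not given in the sources used here. Whether the 18-month pools came from separate tanks or days is not stated, so p-values measure the spread between pools.

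Counts were fitted in R 4.3.3 with edgeR 4.0.16 (filterByExpr, TMM, quasi-likelihood test, 1 coefficient for each of 4 groups, 3 libraries each), and p-values were adjusted over all genes tested (Benjamini-Hochberg, 0.05). Effects at each age and changes with age were contrasts of this fit. The 2-month libraries were fitted alone. Scripts were tested on simulated data. DESeq2 1.42.0, limma 3.58.1 (voom), other filters and normalizations, a replicate block and leaving out each library were alternatives. Intervals of count ratios are exact, at 95%.

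The genes and lists were chosen with earlier results of these data known. Named genes were sgsh, up to 12 called genes in each direction with the largest interaction and a mean of at least 1 CPM, the 5 smallest p, called list members and genes the study names. Of 32520 genes, 20859 were named in the files, 8382 through an ID table and 3279 not at all.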

Additional observations from a re-analysis of the deposited data

Results flagged for a closer look

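The effect of sgsh differed between 3 and 18 months by the test of the difference itself for 26 genes. Their interaction log2 fold changes were negative for CPLX3 (-8.79), si:dkey-31n13.4 (-7.30), senp6b (-5.44), sgca (-3.95), spag9a (-2.14), pcdh1g14 (-2.06), hexa (-1.81), si:ch211-233f10.7 (-1.80), f13a1a.1 (-1.63), pcdh1g30 (-1.53), si:ch211-266c8.1 (-1.25), stm (-0.93), ap4m1 (-0.88), septin8b (-0.83) and PFKP (-0.82). They were positive for MMD2 (6.03), znf1066 (4.51), pcnp (2.05), rasd3 (1.78), pcdh1g1 (1.75), zgc:112332 (1.39), fastkd2 (1.35), si:ch211-114l13.1 (1.28), sulf1 (0.88), slc25a55a (0.62) and hsbp1a (0.55). With 3 libraries in each group, single libraries were not tested as outliers.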

How the results depend on the processing

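The count for the sgsh by age interaction was 26, and it was 28 with limma voom, 26 with RLE and 32 with upper-quartile normalization, 19 with at least 10 counts in every library, 26 without the 10 most abundant genes, 43 with no filter on low counts and 224 with DESeq2. All 26 genes were among the DESeq2 calls and 23 among those of voom. Leaving out 1 library gave 8 to 463 called genes, the highest without replicate 1 of sgsh at 18 months. The next highest was 46, without replicate 3 of sgsh at 3 months, and the lowest was 8, without replicate 1 of wild type or replicate 2 of sgsh at 18 months. In these fits 6 to 26 of the 26 genes stayed called and none changed direction. CPLX3, hexa, septin8b, sgca and si:ch211-114l13.1 were called in every alternative they could be fitted in. The sgsh effect at 3 months was called for 292 genes, for 616 with DESeq2, for 576 in a fit of the 6 libraries of that age, and for 38 to 415 with 1 library left out. The sgsh effect at 18 months was called for 3711 genes, for 1352 in a fit of the 6 libraries of that age, and for 1687 to 5804 with 1 library left out. The change with age in wild type ranged over 2655 to 4824 genes and the change with age in sgsh over 2318 to 5019. The sgsh effect at 2 months was called for 94 genes, for 227 with DESeq2, and for 33 to 157 with 1 library left out. The cause of these differences was not tested. A fit that leaves out 1 library assumes that its group varies like the others.

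When replicate numbers entered the fit as a replicate block within each age, the sgsh by age interaction had 18 called genes, 11 of them among the 26. There the sgsh effect at 3 months had 109, the sgsh effect at 18 months 2327 and the sgsh effect at 2 months 94. A change with age cannot be estimated with such blocks. With 1 number shared across both ages, a fit chosen after seeing the data, the interaction had 14 called genes, 12 of them among the 26. With this shared number the change with age in wild type had 4063 and the change with age in sgsh 3882. Correlations of same-numbered deviations were 0.01 to 0.075 between genotypes at 3 months, -0.205 to -0.033 at 18 months, -0.05 to 0.04 across ages in wild type and -0.111 to 0.142 in sgsh. They give no pairing over all genes, but some lists kept the order of replicates 1, 2 and 3 in wild type at both ages. Glucocorticoid-response genes summed to 1287, 1550 and 1859 CPM at 3 months and 1414, 1681 and 2097 CPM at 18 months. Activator-phase genes of the circadian clock summed to 1122, 1353 and 1431 CPM, then 1010, 1292 and 1440 CPM. Repressor-phase clock genes summed to 1970, 2117 and 2249 CPM, then 2125, 2359 and 2545 CPM. In sgsh neither clock list kept its order between the ages. What the replicate numbers share was not tested.

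Among uncalled genes with an interaction near 0, the sign changed when 1 library was left out for sgsh (-0.019 to 0.24), baiap2b (-0.0144 to 0.35), btg2 (-0.10 to 0.48), egr4 (-0.38 to 0.30), fosab (-0.16 to 0.42), npas4a (-0.20 to 0.16), nr4a1 (-0.41 to 0.032), ppargc1b (-0.0075 to 0.16), rhpn2 (-0.10 to 0.11) and tasor2 (-0.0145 to 0.22). It also changed for npas4a under the replicate block (-1e-04) and for rhpn2 with no filter (0.0119). Depth limits the genes with few counts in 1 group, whose ratios span wide intervals.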

Other observations

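A pair of neuropeptide genes and a few vascular and glial genes had low but uncalled interaction p-values, and all were chosen after their values were seen. Oxytocin (oxt) was 145, 160 and 134 CPM in wild type and 132, 174 and 184 CPM in sgsh at 3 months, and 417, 388 and 437 against 153, 270 and 270 CPM at 18 months (interaction -1.0, SE 0.25, adjusted p = 0.15 in edgeR's quasi-likelihood test). The groups overlapped at 3 months and were apart at 18 months, when the wild-type level had risen. The tachykinin gene tac1 was 58.4 to 64.4 CPM in wild type and 69.9 to 83.8 CPM in sgsh at 18 months, with overlapping groups at 3 months (interaction 0.47, adjusted p = 0.14). The receptor gene tek of blood vessels was 15.4 to 16.3 CPM against 18.8 to 21.5 CPM at 18 months (interaction 0.43, adjusted p = 0.13), and the astroglial glutamate transporter gene slc1a3a 19.4 to 19.7 against 24.1 to 29.2 CPM (interaction 0.45, adjusted p = 0.18).

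Genes of cholesterol synthesis fell with age alike in number in both genotypes. Of 30 tested, 24 were called lower in wild type (11.7% of all genes) and 25 in sgsh (9.6% of all genes). A low interaction p was upward in 5 of the 30 and downward in 1. Of 23 myelin and oligodendrocyte genes 2 were upward and 6 downward. The glucocorticoid-response gene fkbp5 varied within wild type, at 78.2, 236 and 427 CPM at 3 months and 63.2, 223 and 429 CPM at 18 months, while it was 634 to 712 and 692 to 815 CPM in sgsh.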
